A study of Mus musculus with 6 samples.

Results

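The Slc25 genes encode the mitochondrial carriers, the largest family of solute carriers in mammals. Members were taken by name, as protein-coding genes whose symbol is Slc25a followed by a number, and 46 of the 43346 gene IDs in the count files were described. They lie on 19 chromosomes. The study compared 3 liver libraries with the genotype label DKO, for a knockout of both β-catenin (Ctnnb1) and γ-catenin (Jup) in hepatocytes, with 3 Control liver libraries. All 6 came from C57BL6 mice aged 3 months, and total RNA was sequenced from liver. The sources used here give neither the Cre driver nor the exons deleted, and do not describe the genotype of the Control mice beyond that word. Undeleted exons and cells other than hepatocytes can still give reads of both genes, so their counts check the labels only in part. No label says that the libraries of a group came from separate animals, so a p-value here speaks of the spread between libraries, which may be technical.

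Mitochondrial carriers share a fold of repeated pairs of membrane helices and exchange metabolites, nucleotides and cofactors across the inner mitochondrial membrane. In liver they supply substrates for ATP synthesis, the malate-aspartate shuttle, fatty acid oxidation, gluconeogenesis and the urea cycle. A few members work elsewhere: Slc25a17 is in peroxisomes and Slc25a46 is in the outer mitochondrial membrane.

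The libraries differed in depth and in composition before any carrier is considered. Reads assigned to genes numbered 309731, 525037 and 1491237 in DKO-labelled replicates 1, 2 and 3, against 12320487 to 15869639 in the Control libraries. Alb, the albumin transcript of hepatocytes, took 0.0933%, 3.08% and 0.322% of gene counts in DKO-labelled replicates 1, 2 and 3, against 6.58% to 7.66% in Control. The 10 hepatocyte markers were detected in every library, but summed to 2302, 50796 and 5251 CPM (counts scaled to a library total of 1000000) in the DKO-labelled libraries against 108999 to 125286 CPM in Control. Transcripts of the mitochondrial genome took 6.27%, 14.4% and 62.7% of gene counts in the DKO-labelled libraries, against 6.34% to 6.57% in Control. The 1311 olfactory and vomeronasal receptor genes summed to 1782, 1057 and 801 CPM in the DKO-labelled libraries, against 9.10 to 14.0 CPM in Control. Ctnnb1 had 0, 52 and 65 counts in the DKO-labelled libraries, against 2945, 2896 and 2650 in Control, and Jup had 6, 1 and 11 against 339, 270 and 196. At the share of liver transcripts in DKO-labelled replicate 2, as computed below from abundant liver genes, 53.2 Ctnnb1 reads would be expected, so the 52 reads found there are not low against liver RNA. Background, an expectation also computed below, would add 7.54 reads there. In replicate 3 the 65 Ctnnb1 reads stood beside 15.6 expected from liver RNA and 18.8 from background. In replicate 1 the 0 Ctnnb1 reads stood beside 1.32 and 10.3. Jup had 1 read in replicate 2 beside 4.96 expected from liver RNA and 9.34 from background, and 11 in replicate 3 beside 1.45 and 20.4. In replicate 1 its 6 reads stood beside 0.123 and 10.6, and Jup was below the sum in each DKO-labelled library. The libraries are called DKO-labelled throughout. In bulk tissue, fewer cells of a type and less RNA per cell cannot be told apart.

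The family has 4 pairs of neighbours on the same chromosome within 100 kb, and in the liver of Control mice they stood at very different levels. A level is the CPM per kb of exon, averaged over the 3 Control libraries. The promoters of the pairs on chromosomes X and 12 are shown because they set the 2 highest carriers beside neighbours at or below a level of 1.01. Slc25a5 had a level of 332 and Slc25a43, which ends 18.4 kb upstream on the same strand, had no read in Control. Slc25a47 had a level of 321, and Slc25a29, on the opposite strand with a gap of 0.163 kb between the gene models, had a level of 1.01. The RefSeq start of Slc25a47 lies inside its longer GENCODE gene model. Each sequence is the RefSeq promoter on GRCm38.p6, from 250 bases before to 50 bases after the start, written 5′ to 3′ on the strand of the gene, with CpG dinucleotides in capitals. Slc25a5 is at chrX:36795347-36795646 (plus strand, 18 CpG), Slc25a43 at chrX:36743382-36743681 (plus strand, 11 CpG), Slc25a47 at chr12:108850879-108851178 (plus strand, 7 CpG) and Slc25a29 at chr12:108835827-108836126 (minus strand, 32 CpG).
Slc25a5: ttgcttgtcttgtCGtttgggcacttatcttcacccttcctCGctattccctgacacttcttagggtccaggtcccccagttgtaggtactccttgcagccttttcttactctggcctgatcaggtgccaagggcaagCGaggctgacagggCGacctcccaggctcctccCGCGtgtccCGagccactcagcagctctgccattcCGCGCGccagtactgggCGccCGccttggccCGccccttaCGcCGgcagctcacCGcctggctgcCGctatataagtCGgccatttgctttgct
Slc25a43: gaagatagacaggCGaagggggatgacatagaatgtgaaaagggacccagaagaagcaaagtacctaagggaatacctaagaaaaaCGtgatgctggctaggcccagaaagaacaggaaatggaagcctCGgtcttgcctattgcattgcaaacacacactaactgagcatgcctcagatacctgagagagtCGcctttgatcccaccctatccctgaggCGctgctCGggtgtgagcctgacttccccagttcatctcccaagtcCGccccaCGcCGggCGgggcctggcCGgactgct
Slc25a47: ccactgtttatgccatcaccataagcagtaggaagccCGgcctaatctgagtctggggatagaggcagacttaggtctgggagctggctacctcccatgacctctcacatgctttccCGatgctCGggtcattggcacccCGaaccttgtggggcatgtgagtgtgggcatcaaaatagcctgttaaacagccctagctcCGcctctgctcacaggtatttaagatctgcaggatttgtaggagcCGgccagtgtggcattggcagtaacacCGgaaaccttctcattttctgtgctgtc
Slc25a29: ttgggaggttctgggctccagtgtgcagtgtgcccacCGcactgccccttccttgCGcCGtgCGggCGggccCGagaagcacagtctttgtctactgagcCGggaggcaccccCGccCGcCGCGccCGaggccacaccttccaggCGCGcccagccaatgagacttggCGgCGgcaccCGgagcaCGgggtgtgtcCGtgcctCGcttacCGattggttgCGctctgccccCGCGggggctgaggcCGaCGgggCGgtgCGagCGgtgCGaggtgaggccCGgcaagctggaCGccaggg
In these windows the promoter of Slc25a47 held fewer CpG than that of its low neighbour, and the promoter of Slc25a5 held more than that of its silent neighbour, so CpG number did not follow the level in the same way in both pairs. RefSeq promoters were found for 35 members, 44 promoters in all, with a median of 15 CpG (range 1 to 47) against 7 over all 32851 promoters of the same length. ATCAAAG, a TCF/LEF-type motif searched on both strands, was found in 3 of the 44 member promoters, against 3.73% of all promoters. These were of Slc25a22, Slc25a28 and Slc25a43, too few to read as a difference. CAAAGTCCA, an HNF4-type motif searched on both strands, was found in 0 of the 44 member promoters, against 0.475% of all promoters. These are descriptions of letters in a window and say nothing of whether a factor binds there.

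The carriers of the Control livers spanned levels of 332 down to 0.0118 CPM per kb among the 43 members with a read. Slc25a5, the ADP/ATP carrier ANT2, stood at 332 ± 25.6 CPM per kb (SD, n = 3), and Slc25a47, a carrier largely restricted to liver, at 321 ± 27.2. Their ranges over the 3 libraries overlapped, and they ranked 138 and 146 among 21461 protein-coding genes. Slc25a39, which imports glutathione into mitochondria, followed at 97.6 ± 9.33 and Slc25a3, the phosphate carrier that feeds ATP synthase, at 59.8 ± 3.53. Slc25a13, the aspartate/glutamate carrier citrin of the malate-aspartate shuttle and urea cycle, stood at 47.7 ± 4.69. These 5 held 68.5% ± 0.840 (SD, n = 3) of the family's summed level.

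Below them came carriers of the citrate, malate and dicarboxylate routes. Slc25a1, which exports citrate for lipid synthesis, stood at 46.9 ± 1.91 CPM per kb (SD, n = 3 here and below). Slc25a11, the oxoglutarate/malate exchanger, stood at 43.8 ± 7.60, and Slc25a10, the dicarboxylate carrier, at 34.1 ± 6.40. The calcium-regulated ATP-Mg/phosphate carriers Slc25a23 and Slc25a25 stood at 28.9 ± 1.95 and 26.8 ± 11.3. Slc25a20, the carnitine-acylcarnitine translocase of fatty acid oxidation, stood at 25.2 ± 1.10, and Slc25a17, a peroxisomal carrier of coenzyme A and related cofactors, at 24.9 ± 4.62. From Slc25a13 down to Slc25a17 no neighbours in the order were separated by their ranges. Of all 45 neighbouring pairs in the order, 9 had ranges that did not overlap.

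In all, 19 members stood at 10 CPM per kb or more, 15 from 1 to 10 and 12 below 1. The median member stood at 4.24, against 0.392 for all protein-coding genes. The spread between Control libraries was small for most of the 34 members at 1 or more, with a median coefficient of variation of 11.7% (2.18% to 58.3%). Slc25a25 was one of 4 members over 30%, at 13.7 CPM per kb in Control replicate 1 against 33.5 and 33.1 in replicates 2 and 3. The other 3 were Slc25a34, Slc25a4 and Slc25a33, each highest in Control replicate 1. Slc25a31, the germ cell ADP/ATP carrier, Slc25a41 and Slc25a43 had no read in any Control library, which allows up to 0.0712 CPM over the 3 libraries, before division by length (3 counts, counting error only).

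**Figure D1:**
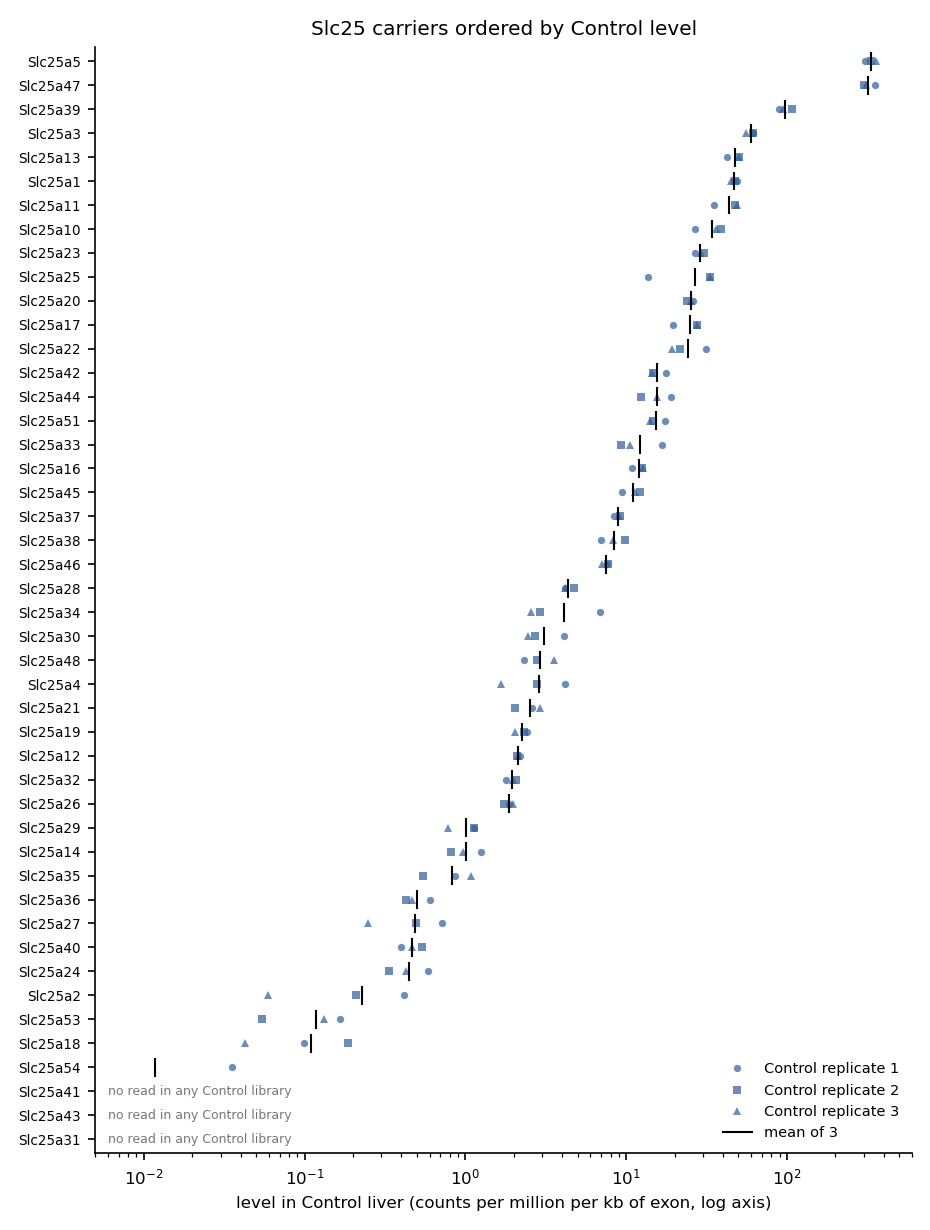
Level of each of the 46 carriers in the Control livers, in CPM per kb of exon on a log axis, ordered by the mean of 3 libraries. Points are the 3 libraries and bars the mean; Slc25a5 and Slc25a47 stand apart at the top, and 3 members have no Control read.

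Most of the paralogues compared were far from equal in Control. The level of Slc25a5 was 136 ± 72.4 times (SD, n = 3) that of Slc25a4, the ADP/ATP carrier ANT1 of heart and skeletal muscle. Slc25a13 was at 22.4 ± 2.63 times the level of Slc25a12, the aspartate/glutamate carrier aralar of brain and muscle. The glutathione carrier Slc25a39 was at 210 ± 13.5 times the level of Slc25a40, and the glutamate carrier Slc25a22 at 295 ± 169 times that of Slc25a18. Other pairs stood nearer to each other: Slc25a42 and Slc25a16, both linked to coenzyme A, differed by 1.31 ± 0.271 times, and of the iron importers Slc25a37 (mitoferrin-1, the erythroid form) was at 2.04 ± 0.125 times the level of Slc25a28 (mitoferrin-2). The lower members of the pairs with the widest SDs had few or uneven Control reads, 3, 5 and 1 for Slc25a18 and 156, 92 and 48 for Slc25a4.

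In the DKO-labelled libraries the carriers held a smaller share of gene counts. The family held 0.125% (0.113 to 0.138), 0.251% (0.238 to 0.265) and 0.0672% (0.0631 to 0.0715) of gene counts in DKO-labelled replicates 1, 2 and 3, with exact binomial 95% intervals, against 0.384%, 0.395% and 0.391% in Control. The means were 0.148% ± 0.0940 in DKO-labelled and 0.390% ± 0.00542 in Control libraries (SD, n = 3 each). These shares rest on 387, 1318 and 1002 reads across the DKO-labelled libraries and on 48115 to 60990 in Control. The intervals cover counting error only, and the groups do not overlap. Without DKO-labelled replicate 2 the mean of that group was 0.0961%. The share of DKO-labelled replicate 3 is also set by its mitochondrial-genome transcripts: with these left out of the total, the shares were 0.133%, 0.293% and 0.180% in DKO-labelled replicates 1 to 3, against 0.410%, 0.423% and 0.418% in Control.

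The order of the carriers differed as well. Slc25a5 and Slc25a47 together held 1.29%, 29.5% and 13.5% of the member counts in DKO-labelled replicates 1, 2 and 3, against 40.4%, 36.8% and 38.6% in Control. Slc25a47 had 4, 267 and 67 counts in the DKO-labelled libraries, against 16686, 12591 and 11342 in Control, and Slc25a5 had 1, 122 and 68 against 7976, 7710 and 7223. DKO-labelled replicate 2 thus came nearest to the Control make-up and replicate 1 was farthest from it. Spearman's rho between a DKO-labelled library and the Control level over the 46 members was 0.305, 0.726 and 0.546 in replicates 1, 2 and 3. It is a description over genes that share a library and differ in exon length. At least 1 read was found for 24, 35 and 46 members in DKO-labelled replicates 1, 2 and 3, against 43, 42 and 42 in Control.

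By transported substrate, carriers of cofactors and nucleotides took 27.4%, 10.5% and 22.9% of member counts in DKO-labelled replicates 1 to 3, against 9.11% to 9.83% in Control. In replicate 1, Slc25a51 and Slc25a36 gave 55 and 40 of the 106 reads of that group. The 5 members with no substrate stated here took 20.7%, 3.11% and 5.29%, against 0.259% to 0.597% in Control. Adenine nucleotide and phosphate carriers took 0.517%, 16.8% and 10.7% (2, 221 and 107 reads), against 22.3% to 23.0% in Control. The aspartate, glutamate and dicarboxylate carriers took 15.8%, 19.8% and 18.5%, a range that spans the 16.9% to 17.3% of Control.

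**Figure D2:**
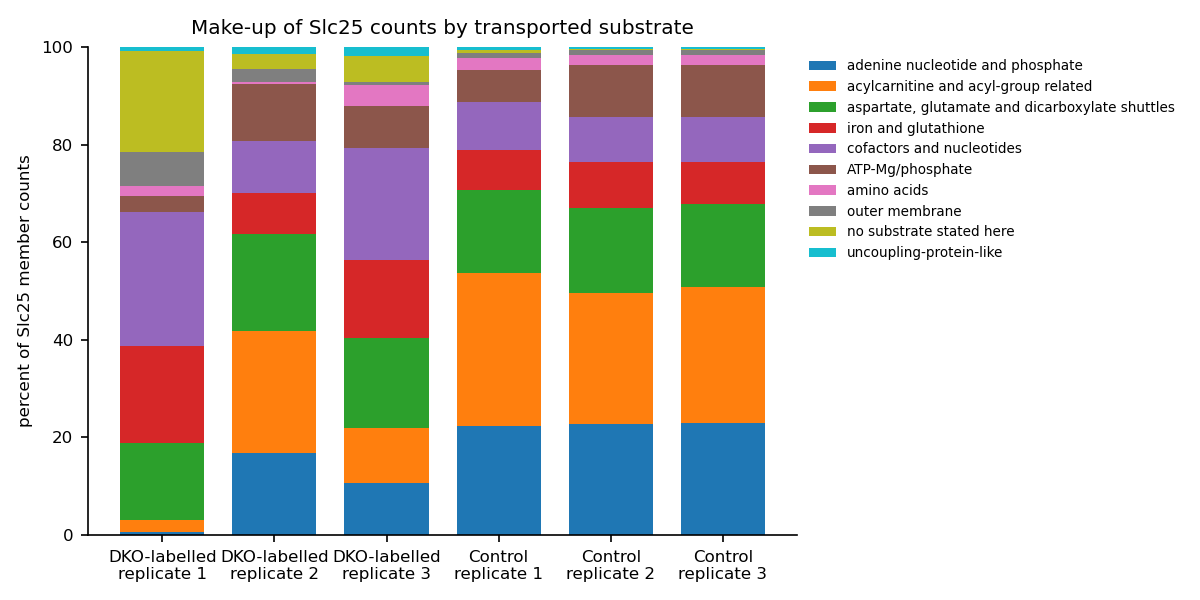
Percent of Slc25 member counts held by each substrate group, with 1 bar per library, the 3 DKO-labelled libraries to the left of the 3 Control libraries. The Control bars are nearly alike. Adenine nucleotide and phosphate carriers take 0.517% (2 reads), 16.8% and 10.7% in DKO-labelled replicates 1, 2 and 3, and 22.3% to 23.0% in Control.

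A pair of expected counts was set beside each member. The first is the count expected if the gene had reads per kb of exon like 8595 protein-coding genes with at most 10 counts over the Control libraries, within the same of 10 bins of GC content. Those genes, which Control liver barely expresses, had 1.35, 0.968 and 2.40 reads per kb in DKO-labelled replicates 1, 2 and 3. The second is the count expected from liver RNA at the Control proportion, scaled by the median of 162 abundant nuclear liver genes that include no Slc25 gene. Over the 46 members the first came to 283, 200 and 492 reads and the second to 25.4, 1024 and 299, in sum 308, 1224 and 791, beside 387, 1318 and 1002 found. Background thus made up most of the reads expected in DKO-labelled replicates 1 and 3, and liver RNA most of those expected in replicate 2. The sums do not describe single members: 12, 33 and 26 of the 46 stood above the expected background in replicates 1, 2 and 3. In replicate 1, Slc25a53, Slc25a37 and Slc25a51 had 75, 65 and 55 of the 387 reads, and 22 members had none.

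For the 12 carriers highest in Control, 64, 919 and 460 reads were found in DKO-labelled replicates 1, 2 and 3. The expected background was 75.7, 54.9 and 133 reads and the expected liver RNA 20.5, 829 and 242. In DKO-labelled replicate 2, 16 members had at least 20 expected reads, and all 16 were within 2-fold of the expectation (median ratio 1.06, range 0.527 to 1.85). This holds for that minimum only: Slc25a44 had 2 reads beside 19.3 expected and Slc25a46 had 36 beside 14.0. Of the same 16 members, 9 were within 2-fold in DKO-labelled replicate 3 and 3 in replicate 1. Slc25a47 had 267 reads in DKO-labelled replicate 2 beside 255 expected, and 67 in replicate 3 beside 83.3 expected. Slc25a5 had 122 beside 146, and 68 beside 46.9. Slc25a25 had 8 reads in replicate 3 beside 39.7 expected, and Slc25a42, a coenzyme A carrier, had 1 beside 26.8. What sets these departures was not tested.

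**Figure D3:**
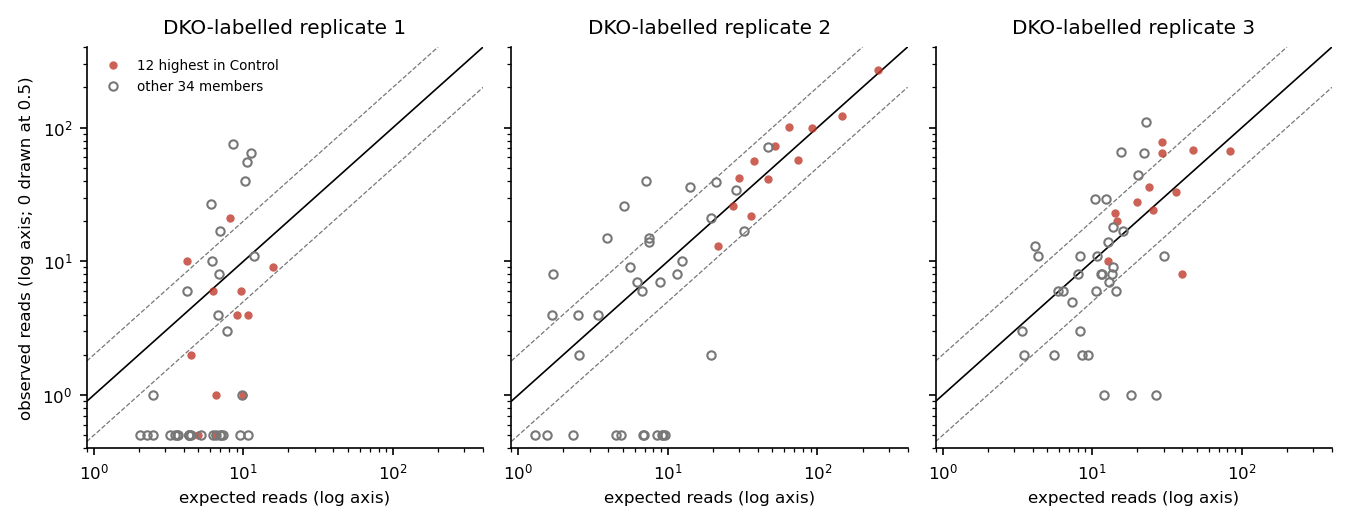
Reads found against reads expected from background and liver RNA together for the 46 carriers in each DKO-labelled library, on log axes, with the line of equality and dashed lines at 2-fold. Filled points are the 12 members highest in Control; they follow the line in replicate 2, where the 16 members with at least 20 expected reads are all within 2-fold; Slc25a44, with 19.3 expected, is not.

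Across all genes, edgeR's quasi-likelihood test with TMM scaling called 31.3% of 15561 genes higher and 12.8% lower in the DKO-labelled libraries, at a Benjamini-Hochberg adjusted p under 0.05. Of the 46 members 40 passed the filter on low counts. Among those 40, 2 rose (5%) and 6 fell (15%), and the median log2 fold change of the tested members was -2.01, against -0.0847 over all genes tested. These medians are not matched for Control level, and matched medians are given below. The values were negative for 29 tested members and positive for 11. The groups did not overlap for 32 of the 40, of which 25 were lower and 7 higher in the DKO-labelled libraries. Among the 7, Slc25a53 and Slc25a27 passed the filter only with the help of the DKO-labelled libraries in which they are high. Over all genes tested the groups did not overlap for 70.4%, 36.4% lower and 34% higher, and 44.1% were called in either direction. Slc25a2, Slc25a18, Slc25a31, Slc25a41, Slc25a43 and Slc25a54 had too few counts to be tested. The number that fell moves with single libraries, as do the calls over all genes. For the members it was 17 without DKO-labelled replicate 1, where 7 rose, 18 without DKO-labelled replicate 2, and 2, 3 and 3 without Control replicates 1, 2 and 3. Over all genes 3685 of 16778 fell without DKO-labelled replicate 1, where 5624 rose, and 4492 of 16847 without DKO-labelled replicate 2. Without Control replicates 1, 2 and 3 the numbers were 567 of 14002, 601 of 14052 and 580 of 14052.

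The signs depend on the scale. TMM centres all genes, while on the scale of the 162 abundant liver genes the log2 fold changes of genes tested on both scales moved by a median of 4.47, 35 of the 40 members had positive values, and 13 were called higher and 0 lower. The 5 members below 0 on that scale were Slc25a48 at -1.64, Slc25a26 at -1.53, Slc25a42 at -0.78, Slc25a47 at -0.18 and Slc25a5 at -0.07. On that scale the member median was 1.44 and that of all genes tested there 4.75, so the members' median was below that of all genes on both scales. Neither gap is matched for Control level. Over all genes the calls were 4871 higher and 1992 lower on the TMM scale, 5045 and 3577 with DESeq2's size factors, and 9862 and 83 on the abundant-gene scale. DESeq2's own test called 5486 higher and 4776 lower of 15561 genes, and its calls of members and lists below are to be read against these. Calls that follow are on the TMM scale, and all other tested members had positive values on the abundant-gene scale.

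Calls were also set beside genes of a like Control level. Of the 14 members over 100 TMM-scaled CPM in Control 1 fell (7.14%), against 16.9% of 1678 genes. From 20 to 100 CPM 3 of 9 fell (33.3%), against 23.4% of 4481 genes. At both levels 0 members rose, against 0.179% of all genes over 100 CPM and 2.19% from 20 to 100 CPM. From 5 to 20 CPM 2 of 10 fell (20%) and 1 rose (10%), against 14.1% and 13.0% of 3664 genes. Over 100 CPM the median log2 fold change was -2.17 for members and -2.34 for all genes, so the members were not lower there. The medians were -2.66 and -1.37 from 20 to 100 CPM, and -1.65 and -0.27 from 5 to 20 CPM. The 5738 genes tested under 5 CPM, which enter the all-gene medians above, had a median of 5.75. The 7 tested members under 5 CPM are not set beside other genes, since so low a gene can pass the filter on low counts through the DKO-labelled libraries in which it is high. Over the 40 tested members Spearman's rho between log2 fold change and Control level was -0.536, a description over genes of the same 6 libraries whose Control values enter both measures.

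**Figure D4:**
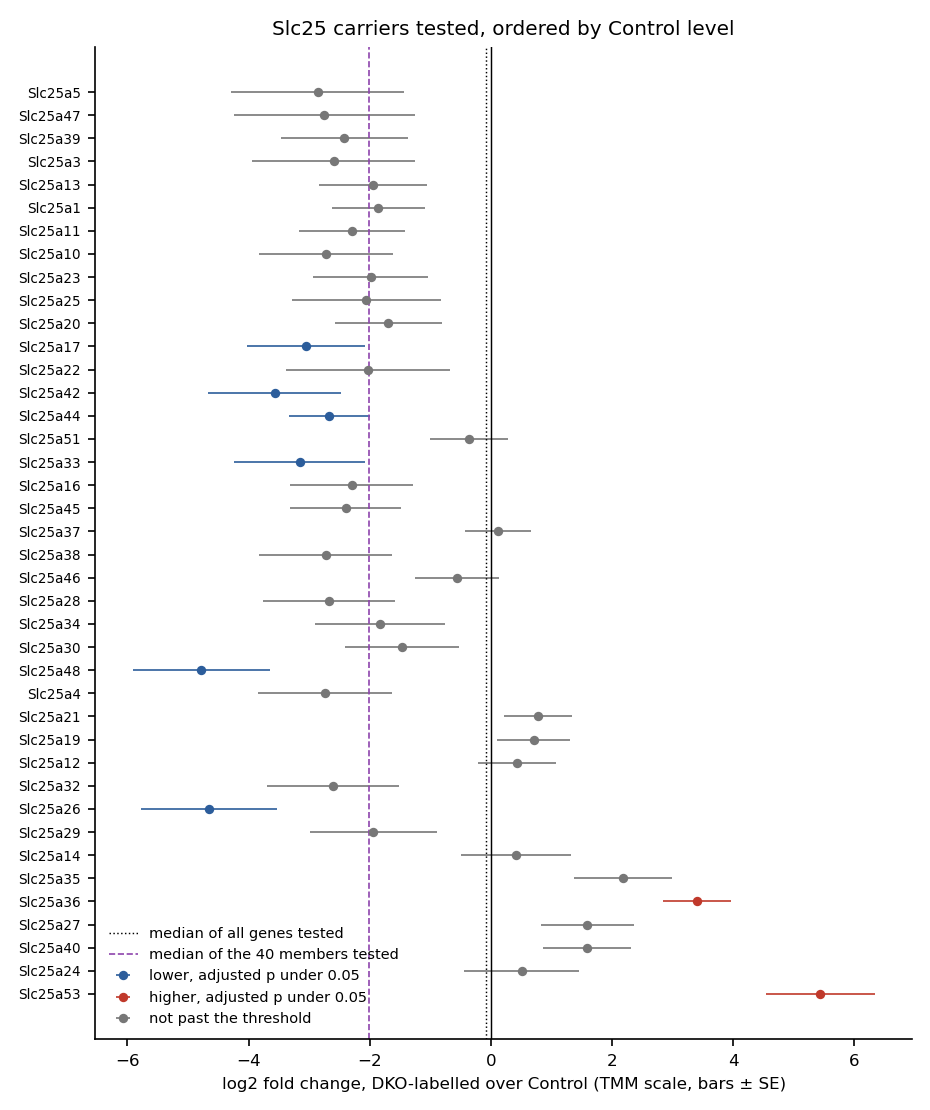
Log2 fold change, DKO-labelled over Control on the TMM scale, of the 40 tested carriers in order of Control level, with bars of 1 SE. The 2 members called higher lie at the low end of the order and the 6 called lower from Slc25a17 down; on the abundant-liver-gene scale 35 of the 40 values are positive.

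The 2 members that rose are both low in Control liver. Slc25a36, a carrier of pyrimidine nucleotides (chromosome 9, 97074961 to 97111157 on mm10), had 40, 40 and 66 counts in DKO-labelled replicates 1, 2 and 3, against 92, 57 and 55 in the far deeper Control libraries. That is 50.9, 68.8 and 71.4 TMM-scaled CPM in the DKO-labelled libraries, all above the 7.02, 5.20 and 5.72 of Control. It rose by 3.41 on the log2 scale (SE 0.56, adjusted p = 0.0011), stood at 3.91, 5.61 and 4.24 times its expected count, and was called higher on both scales. Slc25a53 (chromosome X, 136981116 to 137038302 on mm10), with no substrate stated here, had 75, 26 and 14 counts in the DKO-labelled libraries against 21, 6 and 13 in Control. In CPM these are 95.5, 44.7 and 15.1 in DKO-labelled and 1.60, 0.547 and 1.35 in Control libraries, with no overlap. Its fitted rise was 5.44 (SE 0.90, adjusted p = 0.00117), and it was also called higher on the abundant-gene scale. Its Control reads alone were too few for the filter on low counts, so it was tested only because its DKO-labelled counts are high. A higher value without overlap was thus favoured in advance, and the call of Slc25a53 is a description only. In DKO-labelled replicate 3 its 14 reads stood beside 12.7 expected, and once the expected background was subtracted it had too few counts to be tested. The paralogue of Slc25a36, Slc25a33, behaved otherwise: in Control it was at 24.1 ± 3.27 times the level of Slc25a36, while in the DKO-labelled libraries it had 0, 0 and 8 reads.

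Of the 9 carriers of cofactors and nucleotides, all tested, 4 fell and 1 rose. Slc25a26, which imports S-adenosylmethionine (chromosome 6, 94500331 to 94604672 on mm10), had 0, 0 and 1 reads across the DKO-labelled libraries against 143, 117 and 118 in Control. Its fitted log2 fold change was -4.66 (SE 1.12, adjusted p = 0.00773). With 1 read, the ratio of the groups' scaled counts is better given with its interval, 26.7-fold lower (4.76 to 1057). That 1 read stood beside 33.8 expected from background alone over the DKO-labelled libraries, a gap whose cause was not tested. Slc25a42, a coenzyme A carrier, had 1, 17 and 1 reads against 1687, 1228 and 1072, and fell by 3.57 (SE 1.10, adjusted p = 0.0264). Slc25a17, the peroxisomal carrier, had 0, 13 and 10 reads against 884, 1100 and 962 (log2 fold change -3.05, SE 0.98, adjusted p = 0.0306). Slc25a33, a pyrimidine nucleotide carrier, had 0, 0 and 8 reads against 504, 244 and 246 (log2 fold change -3.15, SE 1.08, adjusted p = 0.0399). All 4 were below every Control library on the TMM scale, whereas on the abundant-gene scale Slc25a17 and Slc25a33 had values of 0.09 and 0.81 and none of the 4 was called. Slc25a33 shares 14.9% of its exon bases with an opposite-strand gene, and the strand setting of the counting is not given.

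The calls of Slc25a17, Slc25a33 and Slc25a42 are the least secure of these. Each was lost when any 1 Control library was left out, with adjusted p of 0.0821 to 0.0947, 0.0948 to 0.157 and 0.0618 to 0.0821, and that of Slc25a17 also without DKO-labelled replicate 3 (adjusted p = 0.0645). The other members of the group that were not called include Slc25a51, the NAD carrier, with 55, 34 and 110 reads against 1526, 1134 and 949 and a log2 fold change of -0.36. Its reads were 5.20 and 4.78 times the expected count in DKO-labelled replicates 1 and 3, and 1.18 times in replicate 2. On the abundant-gene scale it was one of the 13 called higher, at 5.28.

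Among amino acid carriers, 1 of 3 tested fell. Slc25a44, a carrier of branched-chain amino acids, had 8, 2 and 17 reads across the DKO-labelled libraries against 1074, 620 and 682 in Control, and fell by 2.66 (SE 0.67, adjusted p = 0.0104). Its groups did not overlap on the TMM scale, and on the abundant-gene scale its value was 2.93, not called. The call was lost without Control replicate 1 (adjusted p = 0.0536). Slc25a38, which brings glycine into mitochondria for haem synthesis, had 0, 0 and 11 reads against 306, 377 and 280, and did not pass the threshold of edgeR's test (adjusted p = 0.0696), though DESeq2 called it lower (adjusted p = 0.0208).

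Of the 4 members grouped here as acylcarnitine and related carriers, 1 fell, Slc25a48, whose substrate this grouping does not establish. Slc25a48 (chromosome 13, 56438355 to 56474239 on mm10) had 0, 0 and 1 reads across the DKO-labelled libraries against 124, 132 and 148 in Control. The fitted log2 fold change was -4.78 (SE 1.14, adjusted p = 0.00738), and the ratio of scaled counts was 28.5-fold lower (5.09 to 1130). Background alone gave 21.7 expected reads for Slc25a48 over the DKO-labelled libraries, beside the 1 found. On the abundant-gene scale its log2 fold change was -1.64 and not called. Slc25a47 (log2 fold change -2.75, adjusted p = 0.151) and Slc25a20 (-1.69, adjusted p = 0.141) did not pass edgeR's test, with a positive value for Slc25a20 on the abundant-gene scale, and DESeq2 called both lower (adjusted p = 0.0144 and 0.00977). Slc25a20 had 6, 56 and 36 reads against 2003, 1618 and 1522.

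None of the 3 tested adenine nucleotide and phosphate carriers passed the threshold of edgeR's test, where 1 was lower at an unadjusted p under 0.05. DESeq2 called all 3 lower, and edgeR with DESeq2's size factors 2. For Slc25a5 the fitted log2 difference was -2.86 (SE 1.43, adjusted p = 0.125). Slc25a3 had 1, 99 and 33 reads against 5448, 4781 and 3807, a difference of -2.60 (SE 1.35, adjusted p = 0.137). Both were below every Control library on the TMM scale and near 0 on the abundant-gene scale, at -0.07 and 0.02. Slc25a4 had 0, 0 and 3 reads against 156, 92 and 48, a ratio of 6.97-fold lower (2.36 to 33.99), not called (adjusted p = 0.0719). It is the ADP/ATP carrier of muscle, and the 8 skeletal muscle markers summed to 242, 59.0 and 32.2 CPM in the DKO-labelled libraries against 0.573 to 0.893 CPM in Control, with 2 or 3 of the markers at 0 in each DKO-labelled library. Slc25a31 had 0, 0 and 3 reads against none in Control, and 8 testis germ cell markers summed to 83.9, 28.6 and 46.9 CPM, against 0 to 0.126 in Control, with 5, 6 and 3 of them at 0 in DKO-labelled replicates 1, 2 and 3. The 8 neuron markers summed to 565, 270 and 333 CPM across the DKO-labelled libraries, against 15.2 to 18.8 in Control, and the 5 cholangiocyte markers to 326, 187 and 141 against 62.0 to 82.9. Of these 5, 3 were called higher and 1 lower. Brown adipocyte markers (6) summed to 51.7, 55.2 and 51.6 CPM against 15.2 to 16.6. Sinusoidal endothelial markers (7) summed to 762, 244 and 158 CPM against 217 to 385. Kupffer cell and macrophage markers (8) summed to 110, 166 and 99.2 CPM against 207 to 280. Of all genes tested under 5 TMM-scaled CPM in Control, 74.8% were called higher, a share to read such low markers against. The part of these markers in the carriers' values was not tested. Slc25a5 is also known for processed pseudogenes, and reads that align in more than 1 place are counted in a row that names no gene.

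The 7 tested aspartate, glutamate and dicarboxylate carriers gave no call in edgeR's test in either direction, with a median log2 fold change of -1.95 and 3 lower at an unadjusted p under 0.05. Slc25a13, Slc25a1, Slc25a11 and Slc25a10 were called lower by DESeq2 and by edgeR with DESeq2's size factors. Slc25a13 had 21, 73 and 24 reads across the DKO-labelled libraries against 2549, 2660 and 2368 in Control (log2 fold change -1.95, SE 0.89, adjusted p = 0.101). Its paralogue Slc25a12 had 11, 10 and 44 reads against 255, 215 and 192 (0.43, SE 0.64, adjusted p = 0.587). Per kb, Slc25a13 was at 3.69, 14.1 and 1.05 times the level of Slc25a12 in DKO-labelled replicates 1 to 3, against 22.4 ± 2.63 times in Control. Slc25a1 had 10, 42 and 20 reads against 1669, 1430 and 1196 (-1.86, adjusted p = 0.0762), Slc25a11 had 2, 26 and 23 against 1178, 1411 and 1270 (-2.30, adjusted p = 0.0583), and Slc25a10 had 0, 22 and 28 against 1473, 1881 and 1551 (-2.72, adjusted p = 0.0727). The values of Slc25a13, Slc25a1, Slc25a11 and Slc25a10 turned positive on the abundant-gene scale.

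The iron and glutathione carriers gave no call in edgeR's test among 4 tested, with 2 lower at an unadjusted p under 0.05. Slc25a39 and Slc25a28 were called lower by DESeq2 and by edgeR with DESeq2's size factors, and DESeq2 called 1 of the 4 higher, Slc25a40. Slc25a39 had 6, 57 and 78 reads across the DKO-labelled libraries against 3930, 4151 and 3224 in Control (log2 fold change -2.42, SE 1.04, adjusted p = 0.0855, positive on the abundant-gene scale). Slc25a37 had 65, 39 and 64 reads against 801, 769 and 672, which is 82.7, 67.1 and 69.2 TMM-scaled CPM in DKO-labelled and 61.1, 70.1 and 69.8 in Control libraries, with overlap. Its log2 fold change was 0.12 (SE 0.55, adjusted p = 0.86), and its reads were 5.75, 1.85 and 2.89 times the expected count. On the abundant-gene scale it was called higher, at 6.08. Slc25a28, its widely expressed relative, had 0, 0 and 8 reads against 249, 247 and 192 (-2.67, adjusted p = 0.072). The 8 erythroid markers summed to 203, 594 and 193 CPM in the DKO-labelled libraries against 277 to 293 CPM in Control, so they did not separate the groups.

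The remaining groups gave no call in edgeR's test apart from Slc25a53. Among the ATP-Mg/phosphate carriers 0 were past an unadjusted p of 0.05 there, while Slc25a23 was called lower by DESeq2 and by edgeR with DESeq2's size factors. Of the 3 tested ATP-Mg/phosphate carriers, Slc25a23 had 4, 41 and 65 reads against 2248, 2258 and 1918 (log2 fold change -1.98, adjusted p = 0.113), and Slc25a25 had 9, 101 and 8 against 1709, 3673 and 3206 (-2.05, adjusted p = 0.186). Slc25a25 was the one carrier of the 12 highest whose groups overlapped on the TMM scale, at 11.5, 174 and 8.65 CPM against 130, 335 and 333. Slc25a46, of the outer membrane, had 27, 36 and 8 reads against 654, 587 and 473 (-0.56, adjusted p = 0.515, and 5.12 and called higher on the abundant-gene scale). The 3 uncoupling-protein-like members, Slc25a14, Slc25a27 and Slc25a30, summed to 3, 18 and 18 reads across the DKO-labelled libraries; 0 of the 3 were past an unadjusted p of 0.05 in edgeR's test, and DESeq2 called 1 higher and 1 lower.

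Genes that work beside the carriers were set against the same 31.3% higher and 12.8% lower of all genes in edgeR's test. Their lower calls, 9.09% to 13.3% by list, were near that share. Over all genes, higher calls fell from 74.8% under 5 TMM-scaled CPM in Control to 2.19% from 20 to 100 and 0.179% over 100. Genes over 100 CPM had a median log2 fold change of -2.34. The lists are not matched for Control level, so their few higher calls and negative values are not read as particular to them. Of 22 tested other transporters of the mitochondrial membranes 2 rose and 2 fell (9.09% each), with a median log2 fold change of -1.21 on the TMM scale. On the abundant-gene scale 10 were called higher and 0 lower, with a median of 3.79. Mcu, the pore of the calcium uniporter, had 45, 24 and 122 reads across the DKO-labelled libraries against 165, 72 and 100 in Control and rose by 2.97 (SE 0.66, adjusted p = 0.00523), while Smdt1, its small regulator EMRE, had 0, 13 and 8 against 1154, 1193 and 906 and fell by 3.28 (SE 0.99, adjusted p = 0.0239). On the abundant-gene scale these were 8.48 and -0.24. Of 15 tested genes of the import machinery, which inserts carriers into the inner membrane, 0 rose and 2 fell (13.3%). On the abundant-gene scale 3 were called higher and 1 lower. The 1 was Timm22 at a fitted -9.65, a value that is no bound. Timm22, the channel that inserts them, had no read in the DKO-labelled libraries against 227, 183 and 187 in Control. On the TMM scale that is at least 14.1-fold lower at a floor of 3 counts over the group (edgeR adjusted p = 0.00303). The bound does not carry over to the abundant-gene scale. In DKO-labelled replicates 1 to 3, Timm22 had 0.0924, 3.73 and 1.09 reads expected from liver RNA and 6.28, 4.62 and 11.5 from background. The cause of this gap was not tested. Timm10, a chaperone of carriers in transit, had 0, 4 and 6 reads against 416, 412 and 397 (log2 fold change -3.06, SE 0.88, adjusted p = 0.0197, and 0.40 on the abundant-gene scale). DESeq2 called 7 of the 15 lower and 0 higher, as it called 19 lower and 0 higher of the 22 enzymes that use the carried substrates. Over all 15561 genes DESeq2 called 4776 lower and 5486 higher, numbers that are not matched to the lists for Control level. Whether these lists differ in DESeq2's calls from other genes of like level was not tested. In edgeR's test 0 of the 22 enzymes rose, also at an unadjusted p under 0.05, and 2 fell (9.09%). These were Got1 of the malate-aspartate shuttle (-3.16, adjusted p = 0.0317) and the liver glutaminase Gls2 (-2.95, adjusted p = 0.0351). All 22 values were negative on the TMM scale, against 5 of 22 on the abundant-gene scale, where Got1 and Gls2 were at 0.65 and 1.26.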

How the data were processed

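RNA was extracted from liver with RLT buffer and RNeasy kits, per the labels' protocols. The authors deposited a table of read counts for each library, by Ensembl gene ID, for which the submitters' processing notes name STAR, HTSeq and mm10. The sources used here do not give versions, the kit, the strand setting or the annotation. Without a known strand setting, reads of overlapping genes on opposite strands cannot be told apart. The 5 rows that name no gene held 97.3%, 95.4% and 95.3% of reads in DKO-labelled replicates 1, 2 and 3 and 65.1% to 66.7% in Control, and were left out. No pair of libraries within a group held identical values or agreed within sampling noise. Pairs across the groups were not compared in this way.

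A gene name reference matched 42462 of 43346 IDs, and GENCODE M21 gave positions and exon lengths on mm10. The test was edgeR 4.0.16 (R 4.3.3) on all 6 libraries, with glmQLFit and robust fitting, TMM, filterByExpr by group, no covariates, two-sided, adjusted by Benjamini-Hochberg over all 15561 genes tested. SE is the absolute log2 fold change divided by the square root of F. The steps were run on counts simulated from the Control libraries and their spread. That run had no background reads and no shift in make-up, so it does not show how the test behaves on the DKO-labelled libraries. Binomial intervals (95%, exact) and floors of 3 counts cover counting error only. Alternatives were DESeq2 1.42.0, its size factors, no filter, the abundant-gene scale, background subtraction, a block by replicate number and each library left out. Members named with values are the 12 highest in Control, those past the threshold and a list of 18, with others named to account for their group; companion genes are those of smallest adjusted p. Members and lists were chosen with earlier results of these data known. 1 further gene of the family is not reported here.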

Additional observations from a re-analysis of the deposited data

Results flagged for a closer look

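Reads that aligned once but lay outside annotated genes took 73.7%, 65.3% and 61.0% of all reads in DKO-labelled replicates 1, 2 and 3, against 40.6%, 38.4% and 37.8% in Control replicates 1, 2 and 3. These reads lie outside the gene counts on which every carrier value rests, and they stood above the Control level in all 3 DKO-labelled libraries. Their part in the carriers' counts was not tested beyond the expected background reads given above.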

How the results depend on the processing

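Against 2 members called higher, DESeq2 called 5, no filter 6, the abundant-liver-gene scale 13 and background subtraction 1, and leaving out 1 library gave 2 to 7. Over all genes the higher calls were 4871 of 15561, against 5486 with DESeq2 and 11477 of 30209 with no filter. They were 9862 of 15726 on the abundant-gene scale and 2303 of 13334 after background subtraction. Against 6 called lower, DESeq2 called 24, its size factors in edgeR 20, no filter 25, the abundant-gene scale 0 and the replicate block 12, and leaving out 1 library gave 2 to 18. Lower calls over all genes were 1992 of 15561, against 4776 with DESeq2, 3577 with its size factors and 4650 of 30209 with no filter. They were 83 on the abundant-gene scale and 2179 with the block, and moved with single libraries as given above. The 7 came without DKO-labelled replicate 1, and lower calls numbered 17 without that library, 18 without DKO-labelled replicate 2, and 2, 3 and 3 without Control replicates 1, 2 and 3. All 8 calls were kept with DESeq2, its size factors, no filter, the block and without DKO-labelled replicate 1 or 2. After background subtraction Slc25a53 had too few counts to be tested, and Slc25a17 and Slc25a42 were not called at folds no smaller than before (-3.16 and -3.99, adjusted p = 0.143 and 0.142), and the abundant-gene scale kept only Slc25a36 and Slc25a53. On that scale the log2 fold changes of these members turned positive: Slc25a39 1.40, Slc25a3 0.0182, Slc25a13 2.76, Slc25a1 2.58, Slc25a11 1.28, Slc25a10 0.55, Slc25a23 1.81, Slc25a25 1.48, Slc25a20 2.07, Slc25a17 0.092, Slc25a22 0.17, Slc25a44 2.93, Slc25a33 0.81, Slc25a38 1.32, Slc25a28 1.30 and Slc25a4 0.63. Slc25a37 was -0.11 with no filter and ranged over -0.11 to 0.58 as each library was left out, and Slc25a12 was -0.40 after background subtraction. The cause of these changes was not tested. Same-numbered libraries of the 2 groups had correlations of 0.121, 0.0726 and -0.0204 of their deviations from the group means, so the numbers were not read as pairs. Without mitochondrial-genome transcripts the Control share was 0.417%, and without division by exon length the top 5 held 59.4%. Leaving out 1 library gave a family share of 0.0961% to 0.188% in DKO-labelled and 0.387% to 0.393% in Control libraries, and a top-5 share of 68.2% to 68.8%. Depth limits members with few expected reads, for which a count of 0 in DKO-labelled replicate 1 allows up to 9.69 CPM.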
